A study of Homo sapiens with 6 samples.

Results

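The genes described here encode the core machinery of RNA interference and of the microRNA pathway in human cells: DROSHA, DGCR8, XPO5, DICER1, the Argonautes AGO1, AGO2 and AGO3, and the GW182 proteins TNRC6A, TNRC6B and TNRC6C. They were chosen by gene symbol from the A549 count table, with each symbol represented by the transcript that gathered the most counts over the 6 samples together. All 10 were found among 23180 gene symbols, and all 10 passed the filter on low counts that left 13877 genes for testing. AGO4, the remaining Argonaute gene, was not among the chosen genes and is given beside them where the family is described as a whole.

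The samples were total RNA of A549 cells, an established line of human lung carcinoma, of wild-type genotype and at passage 11. In 3 samples the cells had received a control siRNA (siControl), and in 3 the siRNA siKMT9α#1 against N6AMT1, the gene of the methyltransferase subunit KMT9α. Cells were transfected with 65 nM siRNA, and RNA was taken 3 days later. The labels call the samples of a group biological replicates without saying what was separate between them, so the p-values measure the spread between these samples. Both groups received an siRNA, itself a substrate of this machinery, and no untransfected cells stood beside them. A single siRNA sequence was used for the knock-down, so effects of losing KMT9α and effects of this siRNA cannot be told apart, and in bulk RNA fewer cells of a type and less RNA per cell cannot be told apart either.

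In the nucleus, the nuclease DROSHA and its RNA-binding partner DGCR8 form the Microprocessor, which cuts a hairpin out of a primary microRNA transcript. XPO5 (exportin-5) carries the hairpin to the cytoplasm, where DICER1 trims it to a short duplex. An Argonaute protein keeps 1 strand of the duplex as a guide, and a GW182 protein bound to that Argonaute brings in the deadenylases and decapping factors that repress and degrade the paired mRNA. AGO2 is the Argonaute best known for cutting a target that is fully paired to its guide. DGCR8 is also known as the subject of a feedback loop, because its own mRNA holds hairpins that the Microprocessor can cut.

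The sequence at which the transfected siRNA pairs with its target is shown first, because siRNA and microRNA machinery act through such pairing. Below, the stretch of the N6AMT1 mRNA was read from the GRCh37 reference transcript (the build that hg19 names too), in the coding part, exon 3 of 6, at chr21:30254500-30254524 on the minus strand. The capitals mark the 7 bases that pair with bases 2 to 8 of the guide, the seed. The same 7 bases occurred in the 3′ UTR of 4 of the 10 genes, and each occurrence is shown with 8 bases on either side, read in the direction of the mRNA.
N6AMT1: acgctgtaacaaagttcACATTCAa
AGO1: tagcacaaACATTCAttatggag
AGO3: taccagtgACATTCAaatgttga
DROSHA: ctaacatgACATTCAaagacata
TNRC6B, first site: catttacaACATTCAtaggagtt
TNRC6B, second site: cttgtgacACATTCAtgcatgta
These sites lie in the last exon of each annotated transcript, at chr1:36387314-36387336 (plus strand) for AGO1, chr1:36522003-36522025 (plus) for AGO3, chr5:31400679-31400701 (minus) for DROSHA, and chr22:40724149-40724171 and chr22:40727087-40727109 (plus) for TNRC6B.

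The 6 libraries held 13740097 to 19832395.5 counts on 1 transcript per gene, and the fewest counts that any of the 10 genes had in a sample were 121, for AGO1 in siKMT9α. Levels are given as CPM, the count of a gene scaled to equal library size with TMM factors (the trimmed mean of M-values method of edgeR). The target N6AMT1 had 10.2, 10.9 and 11.4 CPM in siControl and 2.87, 3.22 and 3.35 CPM in siKMT9α, a log2 fold change of -1.77 ± 0.12 (SE, edgeR adjusted p = 1.43e-10). All adjusted p-values come from the quasi-likelihood test of edgeR, adjusted after Benjamini and Hochberg over the 13877 genes, a gene is called at an adjusted p under 0.05, and every ± on a log2 fold change is its standard error. The epithelial keratins KRT7, KRT8 and KRT18 were abundant in every sample (502.1 to 2163 CPM). The epithelial markers CDH1 (2.35 to 9.68 CPM) and EPCAM (0.44 to 4.25 CPM) were low. KRT7 overlapped between groups and the others did not. KRT8 was at 1213 to 1346 CPM in siControl and 502 to 544 CPM in siKMT9α, and KRT18 at 1942 to 2163 and 1177 to 1234 CPM. CDH1 was at 2.35 to 4.25 CPM in siControl and 7.82 to 9.68 CPM in siKMT9α, and EPCAM at 3.46 to 4.25 and 0.44 to 0.76 CPM. Of 7 markers of leukocytes, endothelium, fibroblasts and muscle, CD3E was at 0 in every sample, 6 including it stayed under 1 CPM, and COL1A1 reached 4.52 CPM.

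Of the 10 genes, 8 were called higher and 1 (AGO1) lower in siKMT9α, and AGO3 was not called, but the number called higher fell to 5 with the library size alone, where AGO2, TNRC6B and XPO5 lost their calls, and to 5 with offsets for GC content and length, where DROSHA lost its call and TNRC6B and XPO5 turned in direction. The changes in this experiment were widespread: 75.6% of all genes tested were called, 37.1% higher and 38.5% lower. The 9 calls among 10 genes are read against that share. Of the 13877 genes, 4359 were called higher and 6212 lower with the library size alone. With offsets for GC content and length, 5455 were called higher and 5197 lower. The median log2 fold change of the 10 genes was 0.31, and that of all genes tested was -0.01. With the library size alone these medians were 0.20 and -0.12, and with offsets for GC content and length 0.17 and 0.02. In size without sign the median was 0.55 for the 10 genes and 0.47 for all genes. The study's stricter threshold (P under 1e-08, and a log2 fold change of more than 0.26 in size) was applied here to the quasi-likelihood P. It was passed by 3 of the 10, DGCR8, TNRC6A and DICER1, all higher, against 24.2% of all genes in either direction and 13.5% higher. The paper names edgeR but not which of its tests, and the number passing depends on the test. In edgeR's exact test the adjusted p was 5.71e-14 for AGO1 and 1.85e-17 for TNRC6C, so both would pass there. The siControl and siKMT9α values did not overlap for 9 of the 10 genes, 8 of them higher and 1 lower in siKMT9α. Over all genes tested, the groups did not overlap for 77.0%, with 37.6% higher and 39.4% lower.

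**Figure D1:**
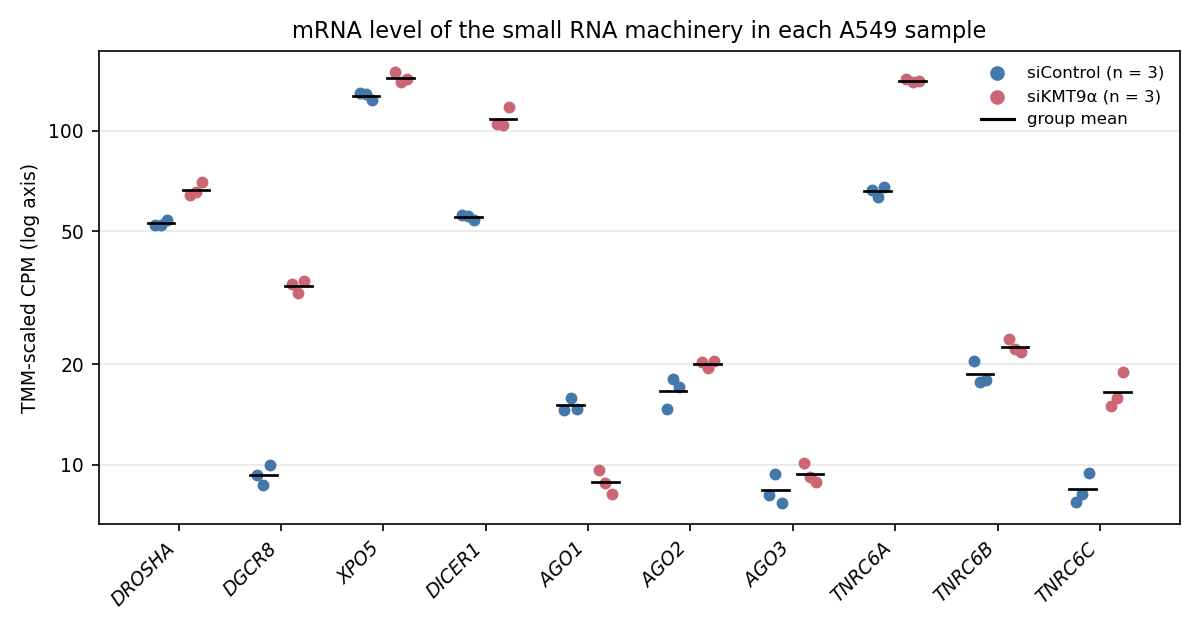
Level of the 10 genes in each of the 6 A549 samples, as CPM scaled by the TMM factors of the libraries, on a logarithmic axis. Points are samples (3 siControl and 3 siKMT9α) and lines are group means. The siKMT9α points lie above all siControl points for 8 genes and below them for AGO1, the AGO3 points overlap, and the separation is wide for DGCR8, TNRC6A, DICER1 and TNRC6C and narrow for AGO2, TNRC6B and XPO5, of which TNRC6B and XPO5 turn direction with offsets for GC content and length.

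DGCR8, the RNA-binding subunit of the Microprocessor, had the largest change of the 10 genes. Its mRNA stood at 9.35, 8.71 and 9.98 CPM in the siControl samples and at 34.8, 32.6 and 35.5 CPM in the siKMT9α samples. The lowest siKMT9α sample was thus above 3 times the highest siControl sample, and the groups were far apart. The fold change was 3.66, or 1.87 ± 0.08 on the log2 scale (edgeR adjusted p = 8.08e-14), and 2.13% of all genes tested had a larger one. Across 19 alternative settings it ranged from 1.76 to 1.93.

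DROSHA, the nuclease of the same complex, moved far less. The gene lies on the minus strand at chr5:31400602-31532282. Its samples held 52.4, 52.1 and 53.9 CPM in siControl and 64.2, 65.5 and 70.1 CPM in siKMT9α, without overlap. The log2 fold change was 0.34 ± 0.05 (edgeR adjusted p = 1.38e-05). With offsets for GC content and length it was 0.11 (edgeR adjusted p = 0.0561), which is no longer a call.

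Per kilobase of transcript, DROSHA counts were 4.69, 5.02 and 4.53 times those of DGCR8 in the siControl samples and 1.55, 1.69 and 1.66 times in the siKMT9α samples. This ratio, which is taken within a sample and does not depend on how libraries are scaled, was 2.91-fold lower after knock-down (two-sided exact permutation p = 0.1, the smallest that 3 against 3 samples allow, and 0.143 after adjustment over 10 ratios). The 2 mRNAs of the Microprocessor therefore differed by less in siKMT9α than in siControl cells.

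DGCR8 lies on the plus strand at chr22:20067755-20099400 of hg19 and overlaps TRMT2A, a tRNA methyltransferase gene, and the microRNA genes MIR3618 and MIR1306. TRMT2A stood at 6.85, 7.29 and 6.86 CPM in siControl and 5.74, 5.41 and 6.54 CPM in siKMT9α (log2 fold change -0.23 ± 0.12, edgeR adjusted p = 0.0867), so its counts did not share the higher level of DGCR8. Where TRMT2A and DGCR8 overlap, their reads cannot be told apart if the counting ignored strand, which the sources used here do not say. Both hairpins lie in exon 2 of the DGCR8 transcript, MIR3618 at chr22:20073269-20073356 outside the coding part and MIR1306 at chr22:20073581-20073665 overlapping it. No other hairpin of the table lies in an exon of the 10 genes (MIR3173, in an intron of DICER1, was at 0 in every sample), and the mature products of both are shown with the seed (bases 2 to 8) in capitals, as RefSeq gives them for GRCh38.p14.
hsa-miR-3618: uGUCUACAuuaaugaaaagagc
hsa-miR-1306-5p: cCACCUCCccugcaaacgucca
hsa-miR-1306-3p: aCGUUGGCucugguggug
No 2 of these seeds are alike. Counts on the hairpins were few and the filter on low counts removed them. MIR3618 had 2, 0.5 and 3.5 counts in siControl and 3, 3.5 and 10.5 in siKMT9α, and MIR1306 had 4, 2.5 and 2.5 counts and 7.5, 5 and 8. Reads in these hairpins are also reads of the DGCR8 exon, and the libraries do not measure mature microRNAs.

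XPO5, the export receptor of the hairpins, was the most abundant of the 10 mRNAs per kilobase and lies at chr6:43490068-43543812 on the minus strand. Its samples held 129.6, 128.4 and 123.6 CPM in siControl and 149.6, 140.0 and 142.7 CPM in siKMT9α, higher in each siKMT9α sample than in each siControl sample. The log2 fold change was 0.18 ± 0.05 (edgeR adjusted p = 0.00225) with TMM factors, 0.07 with the library size alone (edgeR adjusted p = 0.164) and -0.063 with offsets for GC content and length (edgeR adjusted p = 0.219), so its direction rests on the scaling. The ratio of XPO5 to DROSHA overlapped between groups (exact permutation p = 0.2, 0.25 adjusted).

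DICER1, the nuclease that releases the duplex, was at 55.9, 55.5 and 54.1 CPM in siControl and at 104.4, 103.8 and 118.0 CPM in siKMT9α. The siControl samples were close together, and each siKMT9α sample was far above them. The fold change was 1.98, or 0.98 ± 0.06 on the log2 scale (edgeR adjusted p = 7.6e-12), and it ranged from 0.64 (with offsets for length) to 1.02 across the alternative settings, called in each. The gene lies at chr14:95552565-95623759 on the minus strand, and its mRNA of 10224 bases is the most AT-rich of the 10, with 39.0% GC.

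Within a sample, the ratio of DICER1 to DROSHA counts per kilobase was 0.56, 0.56 and 0.52 in siControl and 0.85, 0.83 and 0.88 in siKMT9α, 1.56-fold higher. The ratio of DICER1 to XPO5 was 0.22, 0.22 and 0.23 in siControl and 0.36, 0.38 and 0.43 in siKMT9α, 1.74-fold higher. In both ratios the groups were apart, each with an exact permutation p of 0.1 (0.143 adjusted over the 10 ratios). The cytoplasmic nuclease thus gained on the nuclear nuclease and on the export receptor at the mRNA level.

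AGO1 was the 1 gene of the 10 called lower. Its mRNA was at 14.6, 15.8 and 14.7 CPM in siControl and at 9.67, 8.84 and 8.16 CPM in siKMT9α. The groups did not overlap, and the level was 1.70-fold lower, a log2 fold change of -0.77 ± 0.10 (edgeR adjusted p = 6.16e-07). It stayed between -1.10 and -0.70 across the alternative settings, and 15.4% of all genes tested had a more negative value. AGO1 holds 1 of the seed matches shown above in its 3′ UTR of 4691 bases. AGO3, DROSHA and TNRC6B hold matches too and were not called lower with TMM factors. Whether a match bears on a level was not tested.

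AGO2, the slicing Argonaute, was at 14.7, 18.0 and 17.1 CPM in siControl and at 20.3, 19.4 and 20.4 CPM in siKMT9α. The gap between the highest siControl and the lowest siKMT9α sample was narrow. The log2 fold change was 0.28 ± 0.08 (edgeR adjusted p = 0.00625), and with the library size alone it was 0.17 (edgeR adjusted p = 0.0758), which is no call.

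AGO3 was at 8.12, 9.39 and 7.69 CPM in siControl and at 10.1, 9.21 and 8.89 CPM in siKMT9α. The groups overlapped, the log2 fold change was 0.16 ± 0.11, and the test did not call it (edgeR adjusted p = 0.185, and from 0.0631 to 0.648 over the alternative settings). AGO4, outside the 10 genes, was at 24.1, 21.3 and 21.6 CPM in siControl and at 15.7, 17.5 and 19.4 CPM in siKMT9α, a log2 fold change of -0.34 ± 0.09 (edgeR adjusted p = 0.00153).

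The ratio of AGO2 to AGO1 counts per kilobase was 2.15, 2.45 and 2.49 in siControl and 4.51, 4.71 and 5.39 in siKMT9α, 2.06-fold higher. The ratio of AGO3 to AGO1 was 1.90-fold higher, also without overlap. The ratio of AGO3 to AGO2 overlapped. The exact permutation p was 0.1 for each of the first pair and 0.4 for the last (0.143 and 0.4 adjusted over the 10 ratios).

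The 4 Argonaute mRNAs together summed to 12.3 ± 0.58 CPM per kilobase (SD, n = 3) in siControl and 12.1 ± 0.20 in siKMT9α, so their sum moved by less than the spread between siControl samples on this scale. With the library size alone it was 12.8 ± 0.66 and 11.6 ± 0.20. Within that sum, the share of AGO1 was 16.4% ± 0.11 (SD, n = 3) in siControl and 9.88% ± 0.86 in siKMT9α, and the share of AGO4 was 25.9% ± 2.8 and 20.7% ± 2.1. The share of AGO2 was 38.8% ± 2.8 in siControl and 47.9% ± 0.45 in siKMT9α, and that of AGO3 was 18.9% ± 1.2 and 21.6% ± 1.4. AGO1 shares were lower and AGO2 shares higher in each siKMT9α sample than in each siControl sample. These shares were described and not tested.

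AGO4, AGO1 and AGO3 lie in a row on the plus strand of chromosome 1, from 36273828 to 36522063 in hg19, with 25319 bases between AGO4 and AGO1 and 6783 bases between AGO1 and AGO3. The neighbouring genes did not move as 1 block. Upstream, C1orf216 had a log2 fold change of -0.38 ± 0.08 (edgeR adjusted p = 0.000178), and CLSPN, a mediator of the replication checkpoint, had 1.40 ± 0.09 (edgeR adjusted p = 5.29e-11). Downstream, ADPRHL2 and TRAPPC3 were not called (edgeR adjusted p = 0.422 and 0.083). MAP7D1 had a log2 fold change of 0.33 ± 0.06 (edgeR adjusted p = 0.000159). AGO2 lies elsewhere, at chr8:141541264-141645646 on the minus strand.

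TNRC6A, the GW182 family member with the highest level here, was at 66.5, 63.2 and 68.0 CPM in siControl and at 142.8, 139.8 and 140.8 CPM in siKMT9α. Both groups were tight and far apart. The fold change was 2.14, or 1.10 ± 0.05 on the log2 scale (edgeR adjusted p = 1.47e-13), with a range of 0.74 to 1.13 over the alternative settings. A larger log2 fold change was found for 8.65% of all genes tested. TNRC6A lies at chr16:24741049-24837547 on the plus strand.

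TNRC6C changed by a like factor from a lower level. It was at 7.75, 8.15 and 9.46 CPM in siControl and at 15.0, 15.8 and 18.9 CPM in siKMT9α, with no overlap. The log2 fold change was 0.98 ± 0.11 (edgeR adjusted p = 1.21e-07), and with offsets for GC content and length it was 0.59. The quasi-likelihood P missed the study's threshold, whereas in edgeR's exact test the adjusted p was 1.85e-17. TNRC6C shares its place at chr17:76000318-76104916 with TNRC6C-AS1, for which the log2 fold change was -0.56 ± 0.17 (edgeR adjusted p = 0.00745). Whether the counting used strand is not given in the sources used here, and without strand the reads of the 2 genes cannot be told apart where they overlap.

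TNRC6B was at 20.4, 17.7 and 18.0 CPM in siControl and at 23.7, 22.1 and 21.8 CPM in siKMT9α. The siKMT9α samples were all above the siControl samples, but by little. The log2 fold change was 0.26 ± 0.08 (edgeR adjusted p = 0.00545) with TMM factors, 0.16 with the library size alone (edgeR adjusted p = 0.0744) and -0.23 with offsets for GC content and length (edgeR adjusted p = 0.00683), so the direction of this gene turned and was called both ways. It lies at chr22:40573929-40731812 on the plus strand. Its transcript of 18235 bases is the longest of the 10, and its 3′ UTR of 12567 bases holds both seed matches shown above.

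Within a sample, the ratio of TNRC6B to TNRC6A counts per kilobase was 0.141, 0.128 and 0.122 in siControl and 0.0764, 0.0727 and 0.0711 in siKMT9α, 1.77-fold lower. The ratio of TNRC6C to TNRC6B was 0.71, 0.86 and 0.99 in siControl and 1.18, 1.33 and 1.63 in siKMT9α, 1.62-fold higher. These 2 ratios were apart between groups (exact permutation p = 0.1, 0.143 adjusted), and the ratio of TNRC6C to TNRC6A overlapped (exact permutation p = 0.4).

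Summed over the 3 TNRC6 genes, the level was 9.77 ± 0.37 CPM per kilobase (SD, n = 3) in siControl and 19.8 ± 0.23 in siKMT9α. TNRC6A made up 80.6% ± 0.10 of the sum in siControl and 85.2% ± 0.78 in siKMT9α, TNRC6B 10.5% ± 0.80 and 6.25% ± 0.28, and TNRC6C 8.88% ± 0.80 and 8.59% ± 1.0. With the library size alone the sums were 10.1 ± 0.35 and 19.1 ± 0.22. The sum for these Argonaute-binding proteins was thus higher in each siKMT9α sample than in any siControl sample, whereas the sums of the Argonautes themselves overlapped between groups on the TMM scale.

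**Figure D2:**
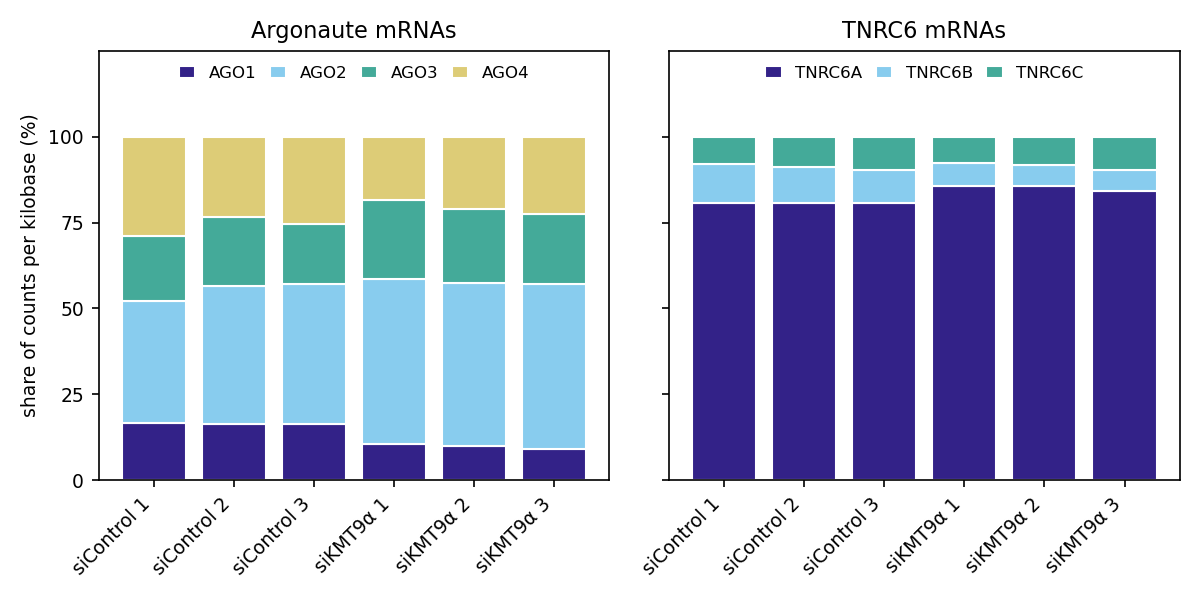
Share of each gene in the summed counts per kilobase of its family, in percent, with 1 bar for each of the 6 samples. The Argonaute panel includes AGO4. AGO1 takes 16.4% of the Argonaute sum on average in siControl and 9.88% in siKMT9α, and TNRC6B takes 10.5% and 6.25% of the TNRC6 sum.

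**Figure D3:**
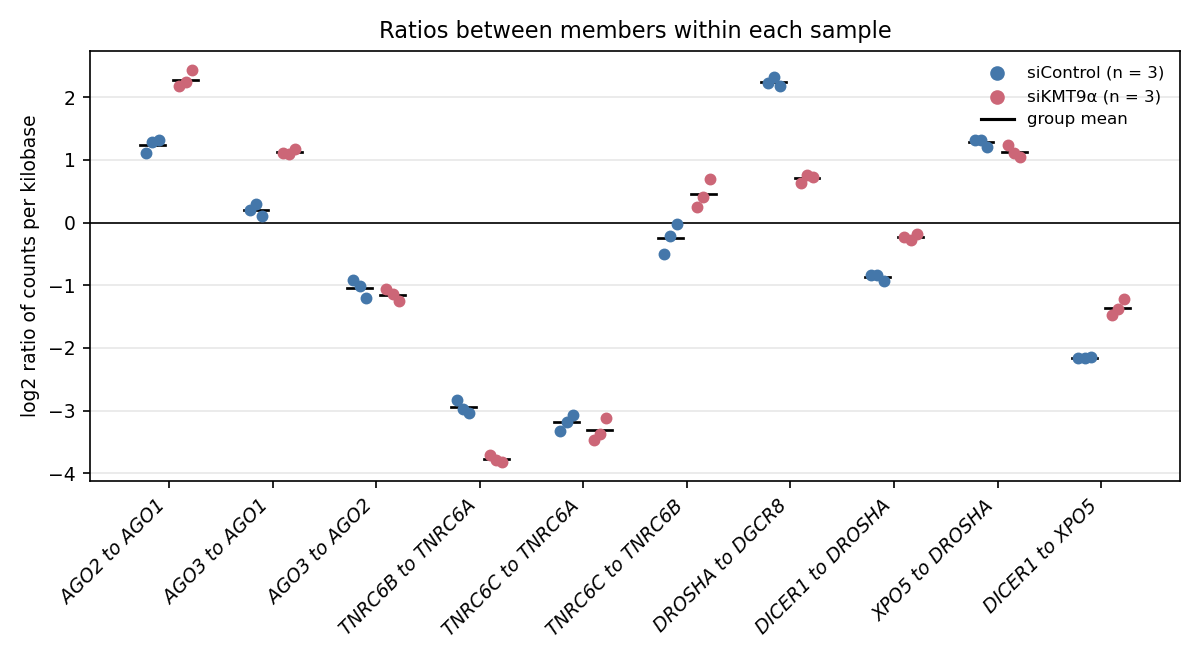
Ratios of counts per kilobase between pairs of genes within each of the 6 samples, on a log2 axis. Points are samples and lines are group means (n = 3 each). The groups are apart for 7 of the 10 ratios, most widely for DROSHA to DGCR8 and AGO2 to AGO1, and overlap for AGO3 to AGO2, TNRC6C to TNRC6A and XPO5 to DROSHA.

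Per kilobase of transcript, which allows levels of different genes to be set side by side, XPO5 led in siControl with 24.0 ± 0.60 CPM per kilobase (SD, n = 3), followed by DROSHA with 9.86 ± 0.18, TNRC6A with 7.87 ± 0.29, DICER1 with 5.39 ± 0.09 and AGO2 with 4.79 ± 0.50. AGO3 (2.33 ± 0.24), DGCR8 (2.08 ± 0.14) and AGO1 (2.02 ± 0.09) came next, and the ranges of neighbours among them overlapped. TNRC6B (1.03 ± 0.08) and TNRC6C (0.87 ± 0.09) were lowest, also with overlapping ranges. The median over all genes tested was 7.53 CPM per kilobase, so 7 of the 10 lay under it.

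In siKMT9α the order was XPO5 with 27.2 ± 0.93 CPM per kilobase (SD, n = 3), TNRC6A with 16.9 ± 0.19, DROSHA with 12.4 ± 0.58, DICER1 with 10.6 ± 0.79, DGCR8 with 7.63 ± 0.33 and AGO2 with 5.78 ± 0.15. AGO3 followed with 2.61 ± 0.18, TNRC6C with 1.70 ± 0.22, TNRC6B with 1.24 ± 0.06 and AGO1 with 1.20 ± 0.10, the ranges of the last 2 overlapping. DGCR8 had thus passed AGO2 and AGO3, TNRC6A had passed DROSHA, and AGO1 had become the lowest. The order was the same in TPM, which scales counts per kilobase to an equal sum in each library.

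**Figure D4:**
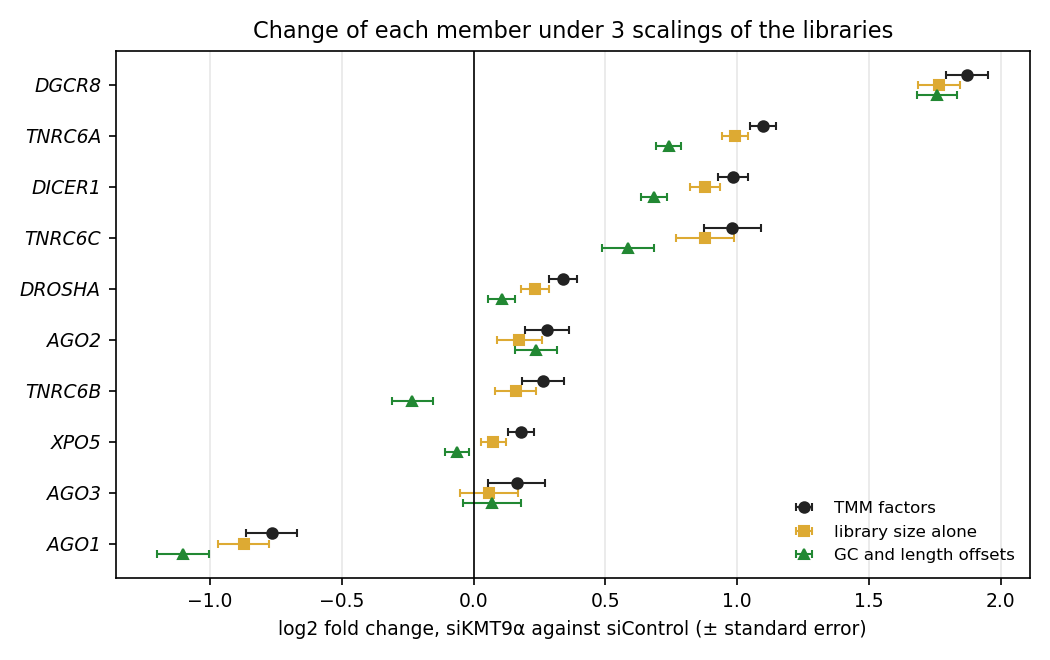
Log2 fold change of each gene, siKMT9α against siControl, with its standard error, under TMM factors (circles), the library size alone (squares) and offsets for GC content and length (triangles). DGCR8, TNRC6A, DICER1 and TNRC6C stay to the right of 0 and AGO1 to the left under all 3, whereas TNRC6B falls from 0.26 to -0.23 and XPO5 from 0.18 to -0.063.

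With the library size alone, the median log2 fold change of all genes fell by 0.11 and the higher and lower calls over all genes went from 5150 and 5342 to 4359 and 6212. DGCR8, TNRC6A, DICER1, TNRC6C and AGO1 kept their direction and their call under each of the 19 alternative settings, and AGO2 and DROSHA kept their direction.

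Of the 10 genes, 7 had more than 1 RefSeq transcript in the table, 19 transcripts in all. Tested by transcript, 16 were called higher and 1 lower, against 76.3% of all 24770 transcripts called, and the 2 not called were those of AGO3. The largest spread of log2 fold changes within a gene was 0.04. Transcripts of a gene share most of their exons and so their reads, which leaves little room for isoforms to differ in such counts.

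The 7 bases complementary to the siRNA seed, ACATTCA read on the mRNA strand, were held by the 3′ UTR of 11.2% of the 12774 tested genes with an annotated one. The median log2 fold change was -0.24 for those genes and 0.01 for the genes without it. Among the 10 genes, the 4 with a match had a median of 0.21. Under TMM factors AGO1 was called lower, DROSHA and TNRC6B were called higher, and AGO3 was not called. TNRC6B, with its 2 matches, turned to lower with offsets for length (-0.20, edgeR adjusted p = 0.0274). It did so too with offsets for GC content and length (given above), where DROSHA lost its call. The 6 without a match (AGO2, DGCR8, DICER1, TNRC6A, TNRC6C and XPO5) were all called higher under TMM factors, with a median of 0.98. AGO2 and XPO5 lost their calls with the library size alone, and XPO5 turned in direction with offsets for GC content and length. Over all genes tested 37.1% were called higher, and the share among genes without the 7 bases was not counted. AGO4, outside the 10 genes, held no match either and was called lower (log2 fold change -0.34). The 3′ UTRs of the 10 genes were long, with a median of 2087 bases against 1023 over all genes, and a longer UTR holds any 7 bases more often. A match is a run of letters and was not tested as a site of pairing.

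The other genes of the pathway were taken as lists by step. Of 114 listed genes 102 were tested, and 55 were called higher and 28 lower, 81.4% in all, with a median log2 fold change of 0.20. Each list is given by its counts, to be read against the 37.1% of all genes called higher and 38.5% lower. The genes named from every list were picked for a call, groups without overlap and the largest changes. Their small adjusted p-values follow from that choice and are no result about the list.

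Partners of nuclear processing and export numbered 13, of which 9 were called higher, 2 lower and 2 not, with a median log2 fold change of 0.34. The highest was HNRNPA1, an RNA-binding protein that can aid the cutting of particular hairpins, at 1.05 ± 0.05 (edgeR adjusted p = 1.18e-12). It shares sequence with pseudogenes, so its counts are uncertain. NCBP2, a subunit of the nuclear cap-binding complex, had 0.89 ± 0.05 and its partner NCBP1 had -0.33 ± 0.05 (edgeR adjusted p = 3.19e-12 and 9.9e-06), in opposite directions within 1 complex. The Microprocessor cofactors also parted: SAFB2 had 0.77 ± 0.06, and ERH, which binds DGCR8 directly, fell from 165.9, 170.9 and 163.9 CPM to 70.0, 69.1 and 64.1 CPM, a log2 fold change of -1.30 ± 0.05 (edgeR adjusted p = 2.2e-14).

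Among 20 partners of Dicer and of the Argonaute complex, AGO4 included, 8 were called higher, 8 lower and 4 not, and the median of 0.05 turned to -0.05 with the library size alone and was 0.13 with offsets for GC content and length. MOV10, an RNA helicase found with Argonautes, went from 8.50, 7.90 and 8.63 CPM to 28.2, 27.3 and 28.0 CPM, a log2 fold change of 1.73 ± 0.08 (edgeR adjusted p = 3.07e-13). CLP1, an RNA kinase better known from tRNA splicing and mRNA 3′ end formation, had 1.13 ± 0.07, and PRKRA, a double-stranded RNA-binding partner of Dicer, had 0.98 ± 0.06. On the lower side stood LIMD1, an Argonaute-binding scaffold, with -1.23 ± 0.06, HSPA8, a general chaperone that also serves Argonaute loading, with -0.85 ± 0.05, and FXR1, an RNA-binding protein of the fragile X family, with -0.57 ± 0.05 (-0.88 with offsets for length). The largest edgeR adjusted p among these 5 was 3.47e-09.

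The deadenylases and their cofactors, which shorten the poly(A) tail of a repressed mRNA, numbered 15, with 9 called higher, 3 lower and 3 not, and a median of 0.16. With the library size alone 6 were higher and 5 lower (median 0.055), and with offsets for GC content and length 6 and 3 (median 0.064). PAN3, the adaptor of the PAN2-PAN3 complex, had a log2 fold change of 1.34 ± 0.08, CNOT1, the scaffold of the CCR4-NOT complex that GW182 proteins contact, had 1.10 ± 0.05, and PABPC1, the poly(A)-binding protein, had 0.90 ± 0.05. CNOT11 (-1.08 ± 0.05) and RQCD1, the table's symbol for CNOT9 (-1.03 ± 0.06), are subunits of the same CCR4-NOT complex and were lower. TNKS1BP1, the third gene called lower, had -0.16 ± 0.05 (edgeR adjusted p = 0.013) and lost its call when siControl replicate 3, siKMT9α replicate 1 or siKMT9α replicate 2 was left out (-0.14, -0.14 and -0.11), and it reached -0.35 with offsets for length.

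Of 14 decapping and decay factors, 7 were called higher, 5 lower and 2 not, with a median of 0.19 that fell to 0.081 with the library size alone and to 0.025 with offsets for GC content and length. EIF4ENIF1, which links the decay machinery to the cap-binding protein eIF4E, had 1.24 ± 0.07, the helicase DDX6 had 0.89 ± 0.05, and the decapping enzyme DCP2 had 0.73 ± 0.06. Lower were DCP1B, a decapping cofactor (-0.49 ± 0.11), EDC3, an enhancer of decapping (-0.40 ± 0.06), and XRN1, the exonuclease that degrades the decapped mRNA (-0.38 ± 0.08). The rule for naming these 6 required a call and groups without overlap, so neither is a result about them. With offsets for length, DCP2 was at 0.38 and XRN1 at -0.72.

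Of 14 listed genes of microRNA tailing, editing and turnover 12 were tested, with 7 called higher, 3 lower and 2 not, and a median of 0.37 that was 0.24 with offsets for length. ZC3H12A, a nuclease that can cut hairpin loops, had a log2 fold change of 1.43 ± 0.09, ADAR, the editor of double-stranded RNA, had 1.15 ± 0.05, and the poly(A) polymerase PAPD5 had 0.77 ± 0.08 (0.48 with offsets for length). LIN28B, which binds let-7 precursors and blocks their processing, fell from 63.3, 61.6 and 62.4 CPM to 25.5, 28.8 and 26.9 CPM, a log2 fold change of -1.21 ± 0.06 (edgeR adjusted p = 8.65e-13). PARN, a deadenylase that trims small RNAs, had -0.58 ± 0.07, and ZSWIM8, a ubiquitin ligase subunit that acts on Argonautes, had -0.41 ± 0.05.

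Of 11 genes of the PIWI pathway, which serves the germline, 3 were tested. The direction of this list depends on the filter on low counts. Without that filter 7 were tested, 2 called higher and 2 lower. With siControl replicate 1 left out 4 were tested, 2 called higher and 2 lower, and the median went from -1.31 to -0.41. In the main fit 1 was called higher and 2 lower. PLD6, a mitochondrial nuclease, was higher (0.52 ± 0.05), and TDRKH, a Tudor domain protein (-1.42 ± 0.09), and PIWIL2 (-1.31 ± 0.21, from a mean of 2.82 CPM to 1.12 CPM) were lower.

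Host genes of microRNAs numbered 27, of which 25 were tested, with 14 called higher, 5 lower and 6 not, and a median of 0.31 that was 0.20 with the library size alone and 0.17 with offsets for GC content and length. MIR31HG went from 2.12, 1.98 and 1.35 CPM to 8.69, 9.35 and 11.0 CPM (log2 fold change 2.44 ± 0.16). MIR100HG went from 2.76, 2.96 and 3.43 CPM to 10.3, 10.1 and 12.1 CPM (1.84 ± 0.13). MIR17HG is the host of the oncogenic cluster that includes MIR17 and MIR20A. It went from 4.67, 3.83 and 2.70 CPM to 10.6, 9.65 and 12.2 CPM (1.55 ± 0.15). The siControl levels of these host genes were low. Called lower were CTDSP1 (-0.70 ± 0.06), CTDSP2 (-0.52 ± 0.05) and COPZ1 (-0.43 ± 0.05, and -0.25 with offsets for length), which hold MIR26B, MIR26A2 and MIR148B. MIR31HG shares its span with IFNE and MIR100HG with BLID, so their counts are uncertain in part. The same holds for genes named from the other lists. NCBP1 overlaps TSTD2, LIMD1 overlaps LIMD1-AS1, PAN3 overlaps PAN3-AS1, and CNOT1 overlaps SETD6. DCP2 overlaps MCC, and ZSWIM8 overlaps ZSWIM8-AS1.

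Rows of microRNA genes themselves numbered 1218, of which 841 were at 0 in every sample and 54 were tested, 50 of them inside the span of another gene. With 25 called higher, 8 lower and 21 not, their median of 0.35 turned to -0.32 with offsets for length (12 called higher and 24 lower) and to -0.064 with offsets for GC content and length (15 higher and 18 lower), so neither the direction of this list nor the larger side of its calls held. MIR1244-1, MIR1244-2 and MIR1244-3 were listed at 1 and the same place inside PTMA, with log2 fold changes of 2.96, 2.96 and 2.95, and are 1 measurement. MIR3661 inside PPP2CA had -1.27 ± 0.12. MIR4775 (-0.72 ± 0.26) and MIR3656 (-0.69 ± 0.26) lost their calls in DESeq2 (-0.72 and -0.67) and without siControl replicate 2 (-0.56 and -0.56), MIR3656 also without siKMT9α replicate 3 (-0.47), and with offsets for length they were at -1.44 and -1.46. Counts on such rows are reads of primary transcripts or of the host mRNA, and none is a level of a mature microRNA.

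**Figure D5:**
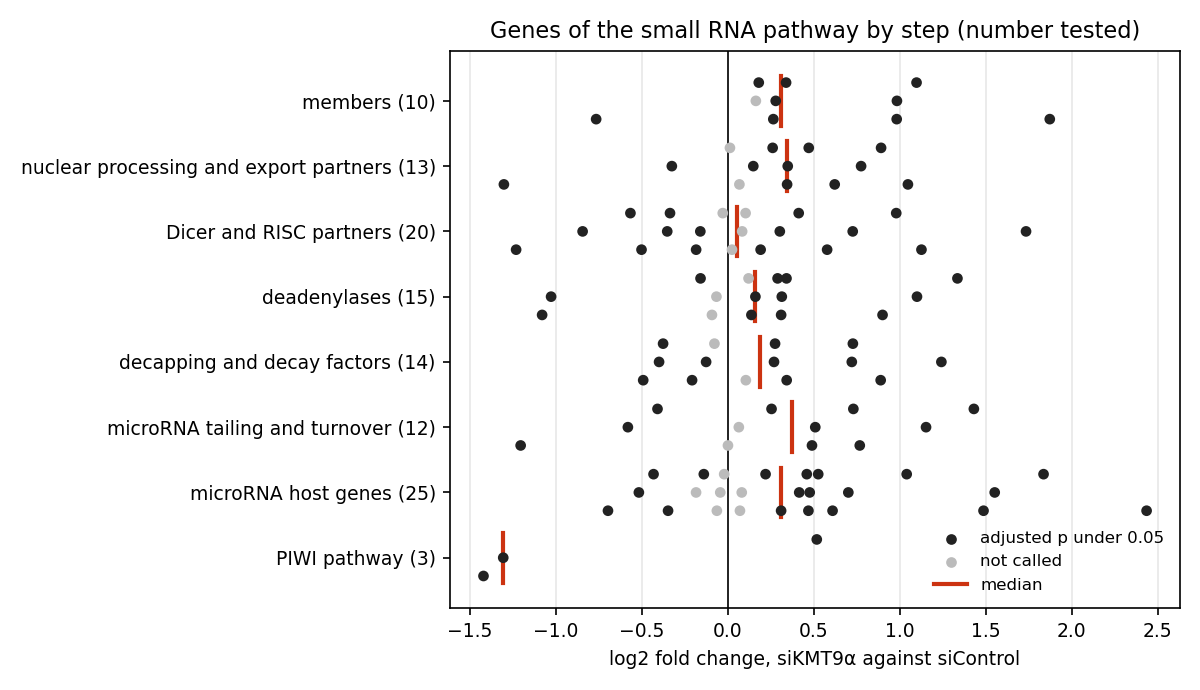
Log2 fold change, siKMT9α against siControl, of the 10 genes and of the other tested genes of the pathway, grouped by step. Each point is a gene, dark where its edgeR adjusted p was under 0.05 and grey otherwise, and the red line is the median of the list. Every list holds genes on both sides of 0, and the medians under TMM factors lie between 0.05 and 0.37 apart from that of the 3 PIWI genes. With the library size alone the median of the Dicer and RISC partners is -0.05.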

How the data were processed

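RNA-Seq of 6 A549 samples was analysed. The authors aligned reads with STAR 2.5 to hg19 and deposited HOMER's estimated counts per RefSeq transcript, not normalized. Values came in steps of 0.5, and 36.4% of them were not whole. Columns of the authors' own fold change, p-value and adjusted p-value were not used. The library kit, strand and read length are not given in the sources used here. The 1182 rows without symbol and counts were left out.

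The counts were rounded and fitted in edgeR 4.0.16 (R 4.3.3) with TMM factors and filterByExpr, and tested with the two-sided quasi-likelihood F test, on 1 transcript per symbol. The standard error was the log2 fold change over the root of F. The biological coefficient of variation was 4.47%. A chi-square per gene of the difference between 2 samples was 1.35 for siKMT9α replicates 1 and 2 and 5.19 for 1 and 3. It was 1.81 for siControl replicates 2 and 3 and 4.70 for 1 and 2. The spread within a group was thus uneven, and what was separate between its samples is not given. On simulated data, 187 of 197 genes changed by 1 on the log2 scale were called. That simulation changed few genes, equally in both directions, with a common dispersion. It therefore does not show how the scaling behaves under changes as widespread as those found here. Ratios were tested by exact permutation.

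The chosen genes and the lists were set with earlier results of these data known. From each list, up to 3 genes per direction were named, those with the largest changes among genes called, at 1 CPM or more on average, whose groups did not overlap. Sequences, GC content and UTRs came from a GRCh37 annotation, which matched 22182 of 23180 symbols, and mature microRNAs from RefSeq. Alternatives were DESeq2 1.42.0, edgeR's likelihood-ratio and exact tests, other scalings, filters, rounding and transcript choices, the replicate number as a block, offsets for length and GC content, and each sample left out.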

Additional observations from a re-analysis of the deposited data

How the results depend on the processing

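N6AMT1 and DGCR8, TNRC6A, DICER1, TNRC6C and AGO1 kept direction and call at an adjusted p under 0.05 in all 19 alternative fits, and AGO3 stayed uncalled in them. Members called higher fell from 8 to 5 with the library size alone, where AGO2, TNRC6B and XPO5 lost their calls, and to 5 with offsets for GC content and length, with or without the replicate block. Members called lower rose from 1 to 2 with those offsets and with offsets for length alone, where TNRC6B reversed to -0.20. These counts are read against all 13877 genes. Of those, 4359 were called higher and 6212 lower with the library size alone. The counts were 5455 and 5197 with offsets for GC content and length, and 5375 and 5146 with offsets for length. With GC and length offsets TNRC6B was -0.23 and XPO5 -0.063, and with the replicate block added, -0.22 and -0.062. The cause was not tested. Under the study's threshold on the quasi-likelihood P, 3 members were higher and 0 lower, 29 and 10 companion genes, and 1878 and 1479 of all genes. Which genes pass it depends on the edgeR test used.

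Same-numbered samples did not deviate together (correlations -0.08, 0.02 and -0.08). With so few samples this cannot show whether the numbers pair them, and the labels do not say. The replicate block alone called 5017 genes higher and 5212 lower and left the members at 8 and 1. Leaving out each sample gave log2 fold changes for DGCR8 of 1.84 to 1.93, for AGO1 of -0.82 to -0.70 and for AGO2 of 0.21 to 0.35, and changed no call among the members. Depth limited the hairpins in DGCR8, which had at most 10.5 counts in a sample.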
